A study of Bos taurus with 28 samples.

Results

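Acetate-based fatty acid synthesis was followed through 4 genes in the liver of dairy cows with ketosis: ACSS2, ACACA, FASN and SREBF1. They were found as the array probes that carry one of these symbols, and no other, in the platform annotation. This gave 5 probes, printed as 10 spots, for 4 of the 6958 genes that could be tested. FASN had 2 probes and each of the other genes had 1. All 10 spots gave a value on each of the 28 arrays.

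Ruminants take up much of their carbon as acetate made by fermentation in the rumen, and acetate rather than glucose is their main building block for new fatty acids. ACSS2 joins acetate to coenzyme A in the cytosol, ACACA turns acetyl-CoA into malonyl-CoA, and FASN builds palmitate from both with NADPH as the reductant. SREBF1 encodes SREBP-1, a transcription factor that insulin signalling raises and that acts on the genes of these enzymes. In cattle most of this synthesis takes place in adipose tissue and the mammary gland, and the liver contributes little.

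The livers came from 14 multiparous Holstein cows in the early weeks after calving, 7 healthy controls and 7 made ketotic. All had passed a physical examination on day 4 after calving and were then assigned to the groups at random. The ketosis group received 50% of its earlier feed intake, starting on day 4 by the sample labels and on day 5 by the study's design text, until clinical ketosis or at the latest day 14. Restricted feeding and ketosis were therefore present in the same cows and cannot be told apart, and the sources used here do not give the day on which each liver was taken. Each cow's RNA was hybridised on 2 arrays with the dyes exchanged, against a common reference made from a pool of cattle tissues. The cow is the replicate (n = 7 per group), and cow numbers only name cows.

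Values are log2 ratios of liver over reference, with the median probe of each array set to 0. The direction of the ratios was likely liver over reference: after turning the arrays with liver in Cy3, hepatocyte markers lay above the genes of other tissues on 28 of 28 arrays. Healthy cow 7 stood apart, its r over all probes with any other cow being 0.397 to 0.483, where no pair of the remaining 13 cows was below 0.792. Its hepatocyte markers were lower (median 3.15, against 5.41 to 7.21 in the other healthy cows) and its stellate cell and fibroblast markers higher (0.24, against -2.67 to -0.81). Also lower were its macrophage (0.58, against 2.21 to 3.49), endothelial (-0.11, against 2.52 to 3.91), adipocyte (-0.02, against 0.26 to 5.15) and blood markers (-0.22, against 0.38 to 1.24). Bile duct (-0.55, against -1.35 to -0.79) and mammary markers (1.45, against 0.14 to 1.23) were higher. Results are therefore given with and without this cow. The spread of values on an array, as the median absolute deviation, was larger in ketotic than in healthy cows (0.941 ± 0.124 against 0.756 ± 0.0865, SD, n = 7 each; exact permutation p = 0.00758), and so was the percentage of unusable spots, at the ceiling or empty (16.5% ± 4.49 against 11.9% ± 2.80; exact permutation p = 0.0338).

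All 4 genes had a lower mean in ketotic cows, and 2 of them, ACSS2 and FASN, passed the test (limma, Benjamini-Hochberg adjusted p below 0.05 over all genes). Of all genes tested, 12.4% passed in that direction. ACSS2 differed most, by -1.85 on the log2 scale, FASN by -0.85 and ACACA by -0.78, while SREBF1 differed by -0.16. The median over the 4 genes was -0.81, against -0.18 over all genes, of which 67.2% had a negative difference. Without healthy cow 7, ACSS2, FASN and ACACA passed, where 18.4% of all genes passed in that direction. In whole liver, fewer cells of a type and less RNA per cell cannot be told apart.

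**Figure D1:**
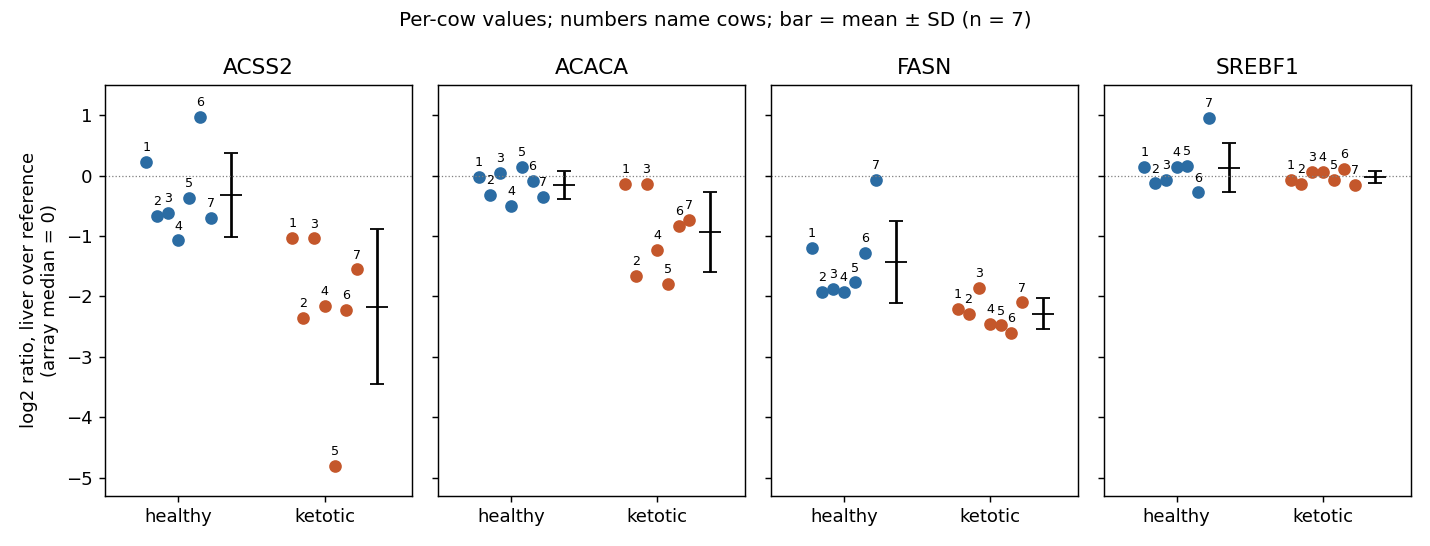
Log2 ratio of liver over reference (vertical axis, array median at 0) for each cow in the healthy (blue) and ketotic (orange) groups, with the mean ± SD of 7 cows beside each group; numbers name cows. ACSS2 reaches -4.81 in ketotic cow 5, and FASN and SREBF1 are highest in healthy cow 7. The ketotic SREBF1 values lie inside the healthy range, with 4 healthy cows above all of them.

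ACSS2, the enzyme that activates acetate, was 3.61-fold lower in ketotic cows. In healthy cows its ratio ran from -1.07 to 0.97 with a median of -0.62, and in ketotic cows from -4.81 to -1.04 with a median of -2.15. All 7 ketotic cows lay below the healthy mean and 5 lay below every healthy cow; ketotic cows 1 and 3, both at -1.04, stood just above the lowest healthy one. The difference was -1.85 (SE 0.496, 95% interval -2.90 to -0.80, limma adjusted p = 0.0240), and an exact permutation test over the 3432 ways to choose 7 of 14 cows gave an unadjusted p of 0.00175.

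Ketotic cow 5 held the lowest ACSS2 value. Its arrays read -5.48 with liver in Cy3 and -4.14 with liver in Cy5, and its adjacent spots differed by as much as 4.25, where the median gap between adjacent ACSS2 spots was 0.19. Without this cow the ACSS2 difference was -1.41 (limma adjusted p = 0.0176). Leaving out healthy cow 7 gave -1.91 (limma adjusted p = 0.0205). Healthy cow 6, at 0.97 the highest, was the only cow whose removal ended the call (-1.63, limma adjusted p = 0.0502). Each dye on its own gave a similar size that did not pass (-1.75 with liver in Cy3, limma adjusted p = 0.0747; -1.95 with liver in Cy5, limma adjusted p = 0.0613). The call was also lost with the share of unusable spots as a covariate (-1.43, limma adjusted p = 0.195) and with the array spread as a covariate (-1.24, limma adjusted p = 0.420). Both measures differed between the groups. Within the ketotic cows, ACSS2 gave an r of -0.673 with unusable spots (rho -0.036) and -0.669 with the array spread (rho -0.321). Without the 2 cows farthest from the median of each measure, r was 0.158 and -0.289. Within the healthy cows the sign was the opposite, with an r of ACSS2 of 0.684 with unusable spots (rho 0.607) and 0.522 with the array spread (rho 0.786). Without the 2 farthest healthy cows, r was 0.049 and 0.239. None of the 16 correlations of the 4 genes with these measures within a group passed (adjusted exact permutation p = 0.420 for r of ACSS2 with each measure in each group). Their part in the group difference was not tested further.

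**Figure D2:**
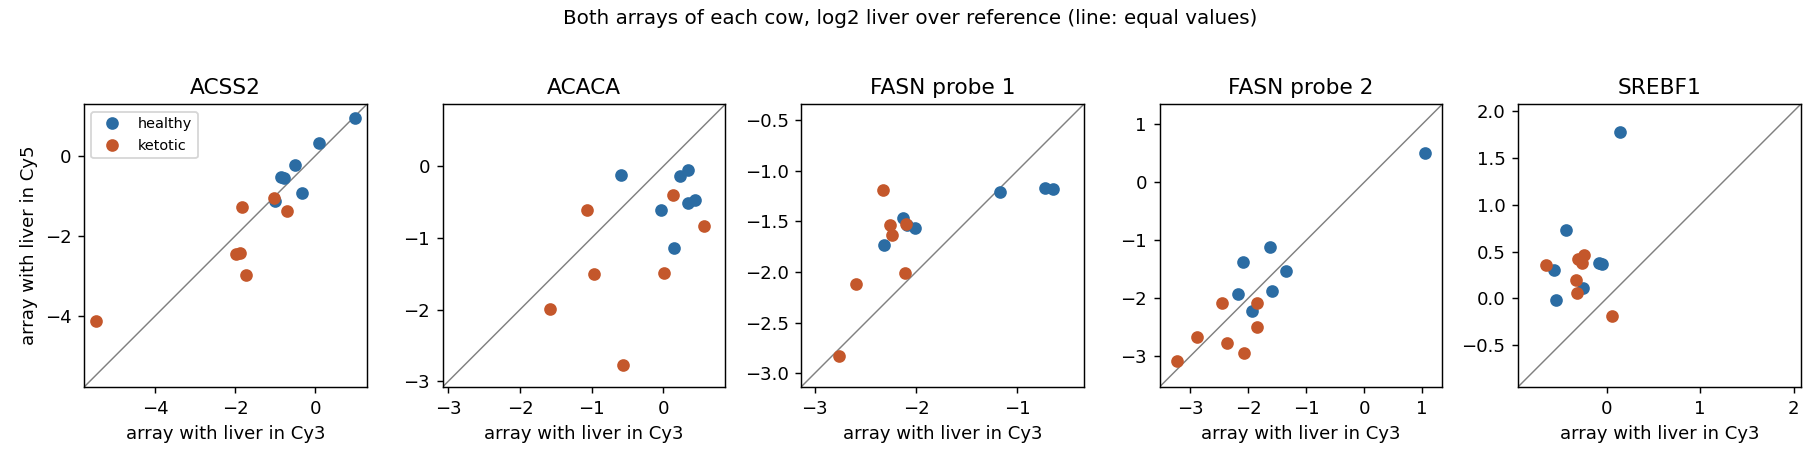
The 2 arrays of each cow plotted against each other for the 5 probes, with liver in Cy3 on the horizontal axis and liver in Cy5 on the vertical axis, both as log2 liver over reference; the grey line marks equal values. ACSS2 lies along the line from healthy (blue) to ketotic (orange) cows, while SREBF1 and ACACA lie mostly to one side of it.

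ACACA, acetyl-CoA carboxylase 1, which makes the malonyl-CoA used for chain building, did not pass in the comparison of all cows. Healthy cows ran from -0.50 to 0.15 with a median of -0.09, and ketotic cows from -1.79 to -0.14 with a median of -0.83. The ketotic cows spread more widely: 5 of them were below every healthy cow, while cows 1 and 3, both at -0.14, were inside the healthy range. These are also the ketotic cows with the highest ACSS2. The difference was -0.78 (SE 0.256, 95% interval -1.32 to -0.23, limma adjusted p = 0.0564; unadjusted exact permutation p = 0.0128). Without healthy cow 7 it was -0.81 and passed (limma adjusted p = 0.0446), as it did without ketotic cow 1 or without ketotic cow 3. ACACA had the widest gap between adjacent spots of the 5 probes (median 0.41), and its arrays with liver in Cy5 read lower than those with liver in Cy3 by a median of 0.58 in healthy and 0.54 in ketotic cows.

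FASN, the synthase that releases palmitate, was 1.80-fold lower in ketotic cows. Healthy cows ran from -1.93 to -0.07 with a median of -1.77, and ketotic cows from -2.61 to -1.86 with a median of -2.29. All 7 ketotic cows were below the healthy mean and 6 were below every healthy cow. The ketotic cows were close together (SD 0.256), and the healthy spread (SD 0.675) owed much to cow 7 at -0.07, without which it was 0.336. The difference was -0.85 (SE 0.260, 95% interval -1.40 to -0.30, limma adjusted p = 0.0420; unadjusted exact permutation p = 0.00233). The difference without healthy cow 7 was -0.62 and passed (limma adjusted p = 0.0197).

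The FASN probes moved the same way by different amounts. Probe 1 averaged -1.50 ± 0.462 in healthy and -2.09 ± 0.371 in ketotic cows (SD, n = 7 each), a difference of -0.59 (limma adjusted p over probes = 0.105). Probe 2 averaged -1.38 ± 0.985 and -2.49 ± 0.399, a difference of -1.11 (limma adjusted p over probes = 0.0679). Neither probe passed on its own. Healthy cow 7 was at 0.77 on probe 2, where the other healthy cows lay between -2.08 and -1.37, and at -0.92 on probe 1, where healthy cow 1 was at -0.95. Without healthy cow 7 the healthy mean was -1.59 ± 0.421 on probe 1 and -1.73 ± 0.297 on probe 2 (SD). Both differences were thus smaller without this cow, that of probe 2 by more. The FASN call was the less stable of the pair that passed. It was lost without any of 8 of the 14 cows, with each dye alone, with either quality covariate (-0.74 and -0.61, limma adjusted p = 0.218 and 0.460) and under 3 ways of scaling the arrays, which gave -0.48 to -0.72 (limma adjusted p = 0.101 to 0.358).

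SREBF1, the transcription factor gene, showed no difference that passed. Healthy cows ran from -0.28 to 0.96 with a median of 0.14, and ketotic cows from -0.15 to 0.11 with a median of -0.07. The ketotic values all lay inside the healthy range, and with an SD of 0.102 they were the tightest group of the 4 genes. The difference was -0.16 (SE 0.170, 95% interval -0.52 to 0.20, limma adjusted p = 0.587; unadjusted exact permutation p = 0.40), so the interval holds a fall of up to 1.43-fold as well as no change. Healthy cow 7, at 0.96, carried most of it: without this cow the healthy mean was -0.01 ± 0.183 and the difference -0.02 (limma adjusted p = 0.918). Its arrays with liver in Cy5 read higher than those with liver in Cy3 by a median of 0.53 in healthy and 0.65 in ketotic cows. The array reads SREBF1 RNA through 1 probe of unknown sequence, so which of the gene's transcripts it covers is not known. It says nothing of the processing of the SREBP-1 protein.

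**Figure D3:**
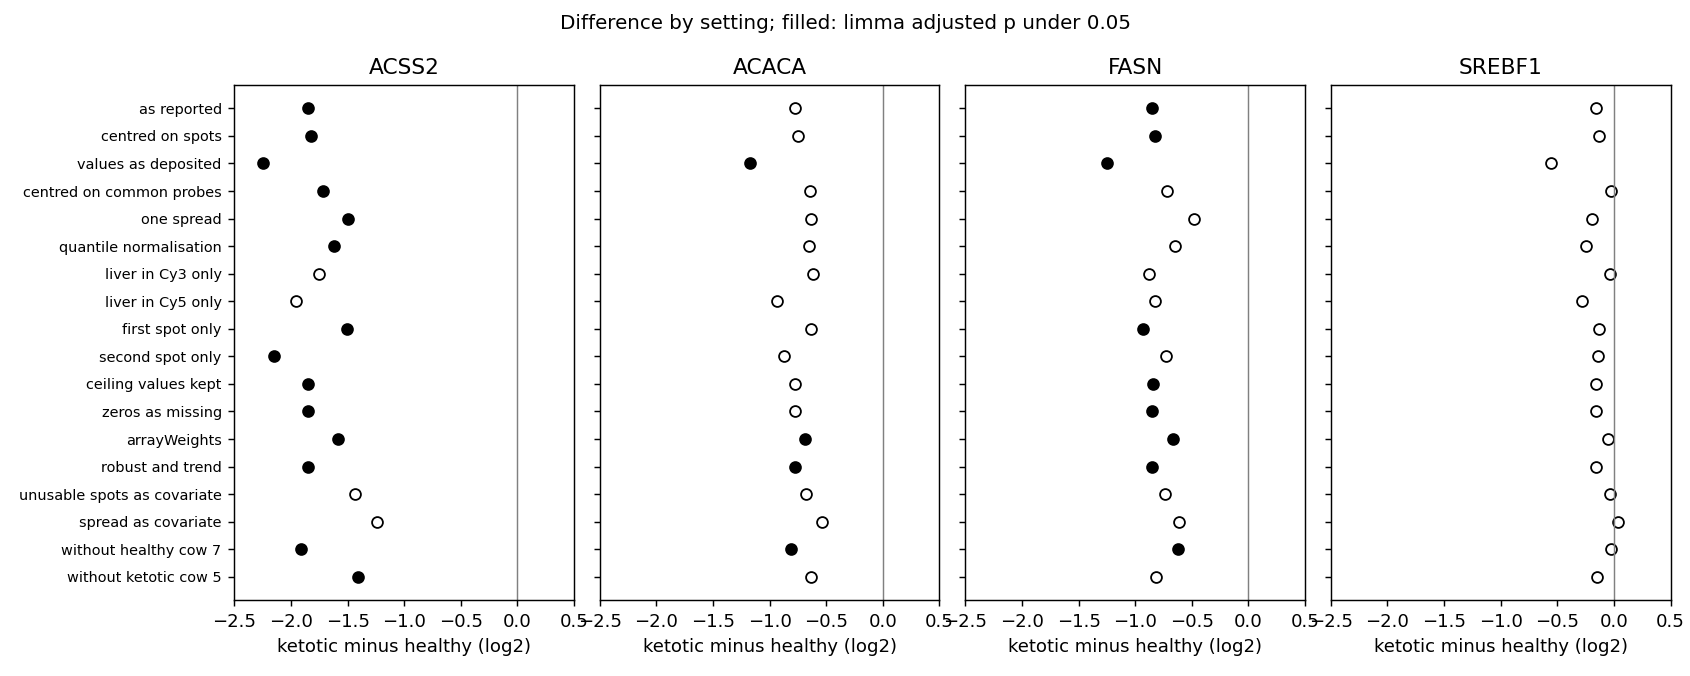
Ketotic minus healthy difference (log2, horizontal axis) of each gene under the reported setting and 17 alternatives (vertical axis); filled points have a limma adjusted p below 0.05. ACSS2, ACACA and FASN stay below 0 in each setting shown, and SREBF1 stays near 0 except with values as deposited, where the median of all genes is itself at -0.58.

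Because the choice of centring shifts every gene, the differences were also read relative to the median of all genes. That median was -0.18 as reported, -0.58 with the values as deposited and -0.05 with arrays centred on the probes measured on every array. Of the genes that passed, 93.1% were lower as reported, 99.6% with values as deposited and 80.0% with the common probes. Relative to the median of all genes, over 6 scalings, ACSS2 stood at -1.34 to -1.67, ACACA at -0.47 to -0.60, FASN at -0.33 to -0.67 and SREBF1 at -0.07 to 0.03; the ends nearest to 0 for ACSS2 and FASN came from scaling the arrays to a common spread, which does more than shift.

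The genes were then compared with each other, as the change of 1 gene minus the change of another within each cow. Such a contrast takes no part of an array's centring. ACSS2 changed more than ACACA, by -1.07 on the log2 scale, a 2.10-fold drop of their ratio (exact permutation p = 0.000583, the smallest that 3432 splits allow; adjusted p = 0.00350 over 6 pairs). The ACSS2 minus ACACA contrast was below its healthy mean in 7 of 7 ketotic cows. The contrast of ACSS2 minus SREBF1 was lower in ketotic cows by -1.69 (adjusted exact permutation p = 0.0140) and that of FASN minus SREBF1 by -0.69 (adjusted exact permutation p = 0.0105), each below its healthy mean in 7 of 7 ketotic cows. The contrast of ACSS2 and FASN was -1.0 and did not pass (adjusted exact permutation p = 0.0993), and without healthy cow 7 it was -1.29 and passed (adjusted exact permutation p = 0.00932). ACACA against SREBF1 behaved likewise (-0.62, adjusted exact permutation p = 0.0993; -0.79 and 0.0280 without that cow). ACACA and FASN differed from each other by 0.07 (exact permutation p = 0.853), with the sign turned under several settings. With only the arrays that had liver in Cy5, no pair passed. The contrast of ACSS2 minus SREBF1 also did not pass with a common spread or quantile normalisation (adjusted exact permutation p = 0.0892 and 0.0804). Neither did that of FASN minus SREBF1 (-0.29 and -0.40, adjusted exact permutation p = 0.287 and 0.0804), nor with FASN probe 1 alone (-0.43, adjusted exact permutation p = 0.103).

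**Figure D4:**
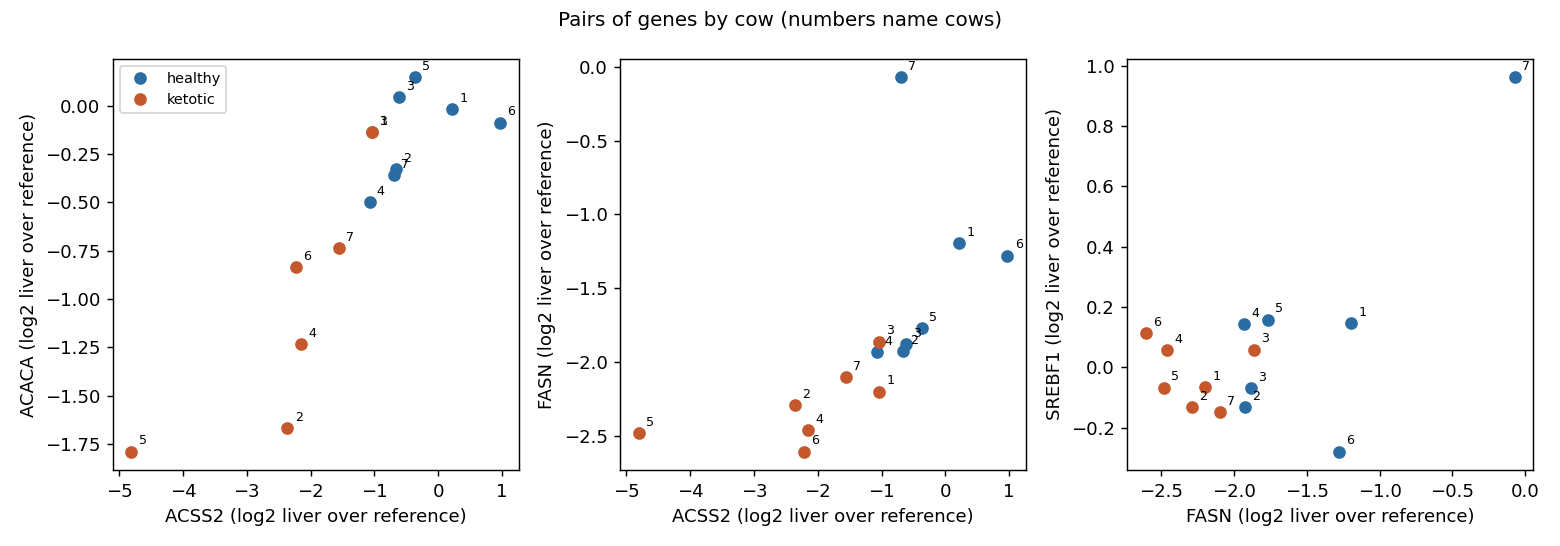
Log2 liver over reference of 1 gene against another, a point per cow, healthy in blue and ketotic in orange, with numbers naming cows. In the plot of ACSS2 and ACACA the ketotic cows run from cows 1 and 3 at the top, both at -1.04 and -0.14, to cow 5 at the bottom left; in the plot with SREBF1, healthy cow 7 stands alone.

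Within the ketotic group, cows with less ACSS2 also had less ACACA. Their Pearson r was 0.836 (exact permutation p = 0.000794, adjusted p = 0.00952 over 12 correlations) and Spearman's rho 0.929 (exact permutation p = 0.00675, adjusted p = 0.0810). Without ketotic cows 5 and 1, the farthest from the median of ACSS2, r was 0.891. It was the only correlation of the 12 that passed, and under 3 other scalings it was 0.770 to 0.811 and no longer passed (adjusted exact permutation p = 0.112 to 0.324). Among healthy cows the same pair gave an r of 0.487 (exact permutation p = 0.283) and a rho of 0.679 (exact permutation p = 0.110). Whether the groups differ in this correlation was not tested. FASN and SREBF1 gave an r of 0.783 (exact permutation p = 0.0901) and a rho of 0.464 (exact permutation p = 0.302) in healthy cows, which rested on single cows: without cows 7 and 1 it was -0.63.

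Each gene was also set against 5239 others with values in all 14 cows. The measure of likeness was Pearson's r over cows after each group's mean was taken out, with the smaller of the values with and without healthy cow 7; the points share cows and arrays, and no p is given. The gene most like ACSS2 was LSS, lanosterol synthase of the cholesterol pathway, at 0.914 (0.828 without ketotic cow 5), followed by PRR13 at 0.910 (0.753 without that cow) and MCRIP2 at 0.901 (0.719 without that cow). Among all genes ACACA ranked 71 for ACSS2, at 0.767. ACACA was most like GRSF1 (0.850), an RNA-binding protein, CLTB (0.841), a clathrin light chain, and HGSNAT (0.835), a lysosomal enzyme, with ACSS2 at rank 17. FASN was most like MYL9 (0.817), a myosin light chain of smooth muscle, PTGDS (0.782), a prostaglandin D synthase, and YIF1B (0.780). SREBF1 was most like FAM110A (0.913), CDC42EP5 (0.859) and INHBB (0.854), a subunit of inhibins and activins. Arrays of a single dye gave lower values for several of these pairs. With liver in Cy5, r with ACSS2 was 0.748 for LSS, 0.537 for PRR13 and 0.400 for MCRIP2. For ACACA, r was 0.455 with CLTB on the arrays with liver in Cy5 and 0.334 with HGSNAT on those with liver in Cy3. With only the first spot of each probe, r with ACSS2 was 0.713 for LSS, 0.714 for PRR13 and 0.652 for MCRIP2. The second spot gave 0.945 for LSS and 0.696 for MCRIP2. FASN gave an r of 0.522 with PTGDS on the first spot and 0.637 with YIF1B with liver in Cy5. SREBF1 gave 0.639 with CDC42EP5 with liver in Cy3. On either dye alone, r over all 14 cows was at least 0.851 for MYL9, 0.822 for FAM110A and 0.876 for INHBB.

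In the list of acetyl-CoA supply 1 of 7 measured genes, ACSS2, fell and none rose, where 12.4% of all genes fell. Without healthy cow 7 it was again 1 of the 7, against 18.4% of all genes. ACLY, ATP citrate lyase, which makes cytosolic acetyl-CoA from citrate, differed by -0.98 (limma adjusted p = 0.0708; named after its value was seen). ACSS1, the mitochondrial acetate-activating enzyme, differed by 0.06 (limma adjusted p = 0.878), against -1.85 for its cytosolic counterpart; the gap between them was not tested. ACSS1 too was named after its value was seen. The median over the 7 genes of this list was -0.50. In the list of malonyl-CoA and palmitate synthesis 3 genes were measured and FASN was the only one that passed, where 12.4% of all genes fell. Without healthy cow 7, 2 of the 3 fell, against 18.4% of all genes. MLYCD, malonyl-CoA decarboxylase, which undoes the ACACA reaction, differed by 0.59 and did not pass (limma adjusted p = 0.128); it was named after its value was seen. ACACB, INSIG1 and SCD had no probe carrying their symbol alone and were not analysed here.

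Of the 8 measured genes of NADPH supply, 2 fell and none rose, where 12.4% of all genes fell, and the median was -0.45. PGD, 6-phosphogluconate dehydrogenase of the pentose phosphate pathway, fell by 1.07 (SE 0.218, limma adjusted p = 0.00732), and 7 of 7 ketotic cows lay below the healthy mean. The PGD call was lost in 4 alternatives. These were a common spread of the arrays (-0.64, limma adjusted p = 0.0551) and liver in Cy5 only (-1.06, limma adjusted p = 0.0784). The others were unusable spots (-0.76, limma adjusted p = 0.0859) and the array spread (-0.63, limma adjusted p = 0.280) as a covariate. NNT, the mitochondrial transhydrogenase, fell by 0.73 (SE 0.190, limma adjusted p = 0.0231), measured in 6 healthy and 7 ketotic cows. Its call was lost in 8 alternatives, and with 1 array taken as enough for a cow the difference was -0.40 (limma adjusted p = 0.510). IDH2 differed by -0.55 (limma adjusted p = 0.0534) and ME1, malic enzyme, by -0.13 (SE 0.599); both were named after their values were seen. With healthy cow 7 left out, 4 of the 8 fell, against 18.4% of all genes.

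Among 10 genes of elongation and desaturation 2 fell and none rose, where 12.4% of all genes fell; the median of -0.20 was close to the -0.18 of all genes. These 2 are the desaturases of polyunsaturated fatty acids: FADS2 fell by 4.10 (SE 0.974, limma adjusted p = 0.0147) and FADS1, measured in 5 ketotic cows, by 2.75 (SE 0.545, limma adjusted p = 0.00776). ELOVL6, which lengthens palmitate, the product of FASN, differed by -1.17 and did not pass (limma adjusted p = 0.0926), while without healthy cow 7 it differed by -1.57 and passed (limma adjusted p = 0.00269); it was named after its value was seen. Without that cow 4 of the 10 fell, against 18.4% of all genes. The FADS1 and FADS2 calls were lost with liver in Cy5 only (limma adjusted p = 0.0612 and 0.0632), and that of FADS2 also with the unusable spots (limma adjusted p = 0.0711) or the array spread (limma adjusted p = 0.149) as a covariate.

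None of the 12 measured genes of SREBP processing and lipogenic transcription factors passed, by limma, where 12.4% of all genes fell. The median of this list was -0.15. NR1H2, the liver X receptor beta, had the smallest p and differed by -0.42 (limma adjusted p = 0.0599). SREBF2, which encodes the SREBP that acts mainly on sterol genes, differed by -0.81 (limma adjusted p = 0.0633), against -0.16 for SREBF1; that SREBF2 and SREBF1 differ in their change was not tested, and SREBF2 was named after its value was seen. Without healthy cow 7, 2 of the 12 passed: SREBF2 at -0.92 (limma adjusted p = 0.0278) and MBTPS1, a protease that cuts SREBP proteins, at -0.70 (limma adjusted p = 0.00443), against 18.4% of all genes. MLXIPL, the carbohydrate-responsive factor ChREBP, differed by 0.07 (limma adjusted p = 0.902). MBTPS1 and MLXIPL were named after their values were seen.

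Of 10 measured sterol genes that SREBP proteins act on, 3 fell and none rose, where 12.4% of all genes fell, and the median was -0.56. LSS fell by 1.81 (SE 0.267, limma adjusted p = 0.00243) from 1.70 ± 0.262 in healthy to -0.10 ± 0.699 in ketotic cows (SD, n = 7 each). SQLE, squalene epoxidase, the step before LSS, fell by 1.31 (SE 0.369, limma adjusted p = 0.0300). The SQLE call was lost in 10 alternatives, among them a common spread (-1.11, limma adjusted p = 0.0522), quantile normalisation (-1.15, limma adjusted p = 0.0531) and leaving out any of healthy cows 1 and 6 or ketotic cows 2 and 4 (limma adjusted p of at most 0.0592). FDPS, farnesyl diphosphate synthase, fell by 0.55 (SE 0.176, limma adjusted p = 0.0491); its alternatives were not run. Without healthy cow 7, 6 of the 10 fell, with MVK, MSMO1 and HSD17B7 added, against 18.4% of all genes. FDPS and these 3 genes were named after their values were seen. The LSS call held in all alternatives tried but 1, the array spread as a covariate (-1.57, limma adjusted p = 0.0952).

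Of the 8 measured genes of AMPK and acetyl-CoA carboxylase control 1 fell, a share near the 12.4% of all genes, with a median of -0.05. It was PRKAB1, a regulatory subunit of AMPK, the kinase that inhibits acetyl-CoA carboxylase (fall of 0.52, SE 0.166, limma adjusted p = 0.0491), a call that was lost in 26 of 34 alternatives. Of the 11 measured genes of insulin signalling to SREBF1, RHEB, which activates mTOR complexes, was the only one to fall (fall of 0.57, SE 0.143, limma adjusted p = 0.0178), a share below the 12.4% of all genes, with a median of -0.11 over the list. The RHEB call was lost in 7 alternatives, among them a common spread (-0.41, limma adjusted p = 0.0742), quantile normalisation (-0.40, limma adjusted p = 0.0817) and either dye alone. INSR, the insulin receptor, named after its value was seen, differed by -0.10 (SE 0.175).

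**Figure D5:**
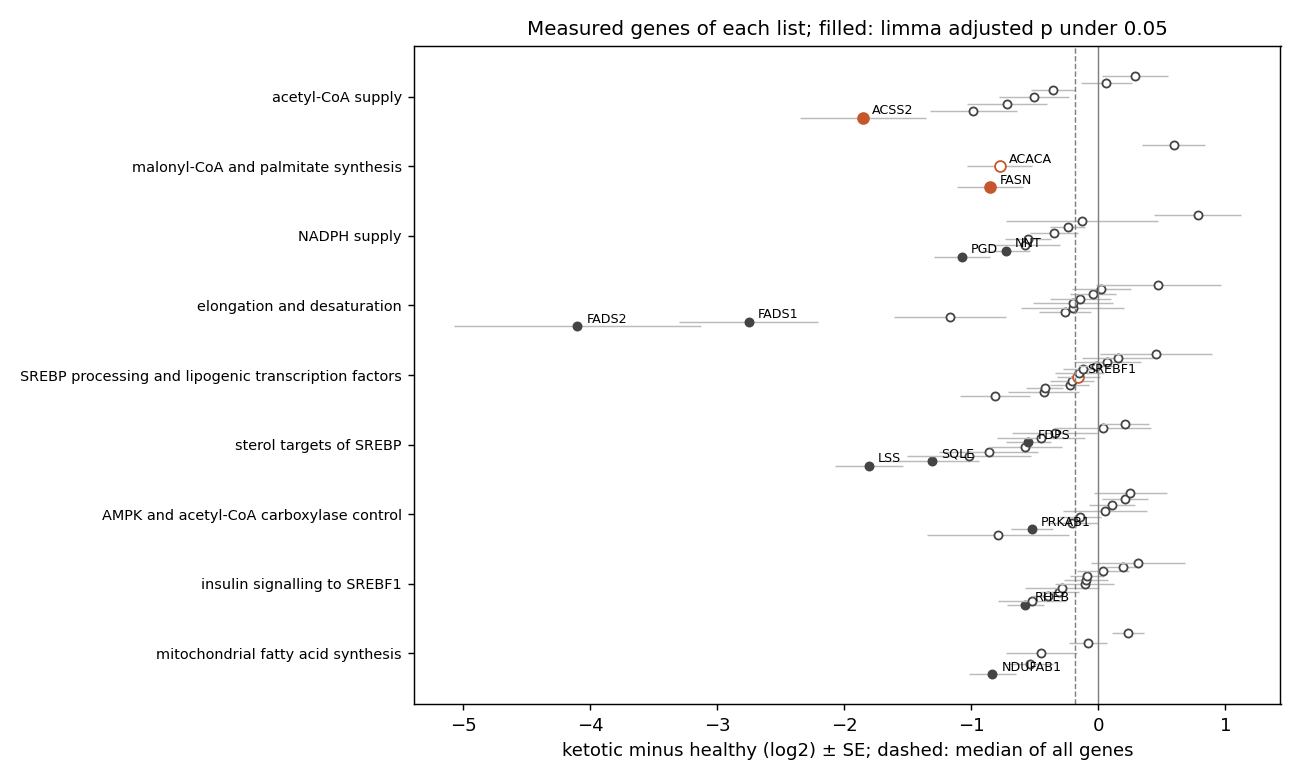
Ketotic minus healthy difference (log2) with its standard error for the measured genes of each list (vertical axis); filled points have a limma adjusted p below 0.05, the 4 genes of the acetate route are in orange, and the dashed line is the median of all genes at -0.18. FADS2 and FADS1 lie farthest to the left, and SREBF1 lies close to the dashed line. ACSS2 has the lowest value of acetyl-CoA supply, followed by ACLY at -0.98, and the gap between them was not tested.

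Markers of the cells a liver sample can hold were measured beside these genes. Of 15 hepatocyte markers 2 rose (ALB and APOA1) and none fell, where 64 of the 6958 genes tested rose. The cows' median over the list was 5.58 to 7.25 in ketotic and 3.15 to 7.21 in healthy cows (5.41 to 7.21 without healthy cow 7). Of 8 macrophage markers 3 fell (AIF1, LAPTM5 and CD74), where 12.4% of all genes fell, with cow medians of 0.79 to 3.09 in ketotic and 0.58 to 3.49 in healthy cows (2.21 to 3.49 without healthy cow 7). Of 9 stellate cell and fibroblast markers none passed by limma, and the cow medians were -3.38 to -2.22 in ketotic and -2.67 to 0.24 in healthy cows (-2.67 to -0.81 without healthy cow 7). KRT8 fell among 5 bile duct markers, while KRT18 (-0.54), KRT19 (-0.46), EPCAM (-0.04) and CFTR (0.36) did not pass by limma. None of 5 adipocyte, 5 endothelial, 2 blood and 2 mammary markers passed. The adipocyte markers were far apart in level. Their healthy means were 3.97 for CFD and 3.92 for RBP4, against -0.21 for LEP, -0.10 for LIPE and -3.24 for CAV1. KRT8 or CFD alone therefore does not tell the bile duct or fat cell content of a sample. With healthy cow 7 left out, where 18.4% of all genes fell, the markers that fell were 4 of 8 for macrophages (C1QB added), 1 of 15 for hepatocytes (APOB), 1 of 9 for stellate cells and fibroblasts (DCN), 2 of 4 for bile duct (KRT8 and EPCAM) and 1 of 3 for adipocytes (CFD). Marker genes were named after their values were seen. Fat cells and mammary cells express much ACSS2, ACACA and FASN; of 9 mammary and 10 adipocyte markers 2 and 5 were measured in enough cows to be tested. These are ratios to a reference pool and give no cell counts, and the part of cell makeup in the differences of ACSS2 and FASN was not tested.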

How the data were processed

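The deposited table holds 1 log2 ratio of Cy5 over Cy3 per spot; the sources used here do not say how the authors scanned, filtered or normalised it. Array medians ran from -1.06 to 2.12. Values at the ceiling of 16.61 (6245) and empty cells (103458) were taken as missing, and 5777 values of exactly 0 were kept. The sign of each array with liver in Cy3 was turned; the direction is called likely, from the dyes in the titles and the marker check, since 1 ketotic array's label fields name the same dye for both channels. Adjacent spots, 27648 per array, were averaged to 13824 probes, each array was centred on its probe median, and a cow's value is the mean of its 2 arrays. A probe needed 5 cows per group; a gene is the mean of its centred probes. Scanner intensities were not used, so no filter on dim spots was possible, and the number of arrays limits the precision. Names come from the platform annotation (8645 probes with 1 symbol, 105 with several, 5074 with none), brought up to date by gene ID from the ARS-UCD2.0 gene table; no coordinates or sequences are given.

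All genes were fitted together with limma 3.58.1 in R 4.3.3 (lmFit, eBayes, two-sided, Benjamini-Hochberg, threshold 0.05); the fit was tested on simulated data. Exact permutation tests, two-sided, covered single values. The limma p-values set each group difference against the spread between these cows, as adjusted over all genes by eBayes. The exact p-values count other splits or pairings of these cows. Genes named were the 4 members, up to 2 passing genes of each pathway list by smallest p (or the smallest p where none passed), and the 3 most alike genes per member; other genes named were chosen after their values were seen. The members and lists were chosen with earlier results of these data known. Alternatives covered scaling, dyes, spots, filters, weights, covariates, the threshold and each cow left out; centring on spots, single spots, the array spread as a covariate, single FASN probes and other scalings of the correlations were chosen after seeing the data. Figures were drawn with matplotlib 3.10.9.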

Additional observations from a re-analysis of the deposited data

Results flagged for a closer look

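Cows that lay far from the others of their group were sought in 68 groups of values, and 16 were found, 9 of them in healthy cow 7. Chance alone would give about 1 in 20 groups if each were taken by itself. The groups share cows and values, so the 16 are not separate finds and cannot be set against that rate.

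In healthy cow 7, FASN was at -0.072 (nearest other healthy cow -1.20) and its probe 2 at 0.77, SREBF1 was at 0.96 (nearest 0.16), and the contrast of ACACA minus FASN was at -0.29 (nearest 1.18). The same cow was highest for PRKAB1 (0.27) and lowest for ELOVL6 (-3.00), MBTPS1 (-1.73) and MSMO1 (-0.13), and its median correlation with the other healthy cows was 0.434, where the next lowest was 0.900.

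In ketotic cow 5, ACSS2 was at -4.81 (nearest other ketotic cow -2.36), and so its contrasts were far out too, at -3.02 against ACACA, -2.33 against FASN and -4.74 against SREBF1. PGD was also lowest in this cow, at -3.47. It had the largest percentage of unusable spots, 25.0%, and the widest array spread, 1.14.

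SQLE was high in healthy cow 6, at 1.19, the cow with the highest healthy ACSS2. SREBF2 was high in ketotic cow 1, at 0.50, which is among the ketotic cows with the most ACSS2 and ACACA.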

How the results depend on the processing

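No paired analysis was possible because the cow numbers only name cows and pair none across the groups. ACSS2, ACACA and FASN kept a negative difference in all alternatives tried, and so did LSS, SQLE, PGD, NNT, FADS1, FADS2, PRKAB1, RHEB and NDUFAB1.

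Adjusted p-values follow the differences in brackets. The ACSS2 call was lost with liver in Cy3 only (-1.75; 0.0747), liver in Cy5 only (-1.95; 0.0613), unusable spots as a covariate (-1.43; 0.195), the array spread as a covariate (-1.24; 0.420) and a threshold of 0.01 (-1.85; 0.0240). The FASN call was lost with common probes (-0.72; 0.101), a common spread (-0.48; 0.358), quantile normalisation (-0.65; 0.151), liver in Cy3 only (-0.88; 0.0928), liver in Cy5 only (-0.83; 0.102), 1 array taken as enough (-0.85; 0.0603), at least 3 cows per group (-0.85; 0.0505), unusable spots (-0.74; 0.218) or spread (-0.61; 0.460) as a covariate, the second spot of each pair only (-0.73; 0.0923), probe 1 (-0.59; 0.105), probe 2 (-1.11; 0.0679) and a threshold of 0.01 (-0.85; 0.0420). ACACA passed in 7 of 33 alternatives at the threshold of 0.05, where its adjusted p reached 0.520. Beside 3 of the cows left out, these were the values as deposited (-1.18; 0.0121), all 7 cows required (-0.78; 0.0446), arrayWeights (-0.69; 0.0483) and the robust fit with a trend (-0.78; 0.0496). It also passed at a threshold of 0.1 (-0.78; 0.0564) and by the unadjusted exact permutation test (-0.78; 0.0128). ACACA did not pass with liver in Cy3 only (-0.62; 0.214), liver in Cy5 only (-0.93; 0.157), common probes (-0.65; 0.104) or a common spread (-0.63; 0.106). SREBF1 turned sign with the spread as a covariate (0.033).

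The counts of genes lower and higher, 865 and 64 as reported, were 493 and 123 with common probes, 515 and 35 with a common spread, 537 and 25 with quantile normalisation, 2466 and 11 as deposited, 11 and 1 with liver in Cy5 only, 160 and 8 with unusable spots and 7 and 0 with the spread as a covariate, and 222 and 5 at a threshold of 0.01. Genes higher were 41 with liver in Cy3 only, 141 with arrayWeights, 106 as probes and 150 at a threshold of 0.1.

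Among the contrasts of 2 genes, tested by exact permutation, liver in Cy5 only gave -1.02 for ACSS2 and ACACA, -1.67 for ACSS2 and SREBF1, -0.54 for FASN and SREBF1 (each adjusted p = 0.0612) and -0.11 for ACACA and FASN (0.793). A common spread gave -1.31 (0.0892), -0.29 (0.287) and -0.15 (0.703) for the last 3 of these, and quantile normalisation -1.37 (0.0804), -0.40 (0.0804) and -0.0044 (0.992). The second spot gave -1.43 for ACSS2 and FASN (0.0498) and -0.14 for ACACA and FASN (0.665). FASN probe 1 gave -1.26 for ACSS2 and FASN (0.0140), -0.43 for FASN and SREBF1 (0.103) and -0.19 for ACACA and FASN (0.526). The correlation of ACSS2 and ACACA in ketotic cows did not pass with common probes (0.798; 0.112), a common spread (0.811; 0.293) or quantile normalisation (0.770; 0.324), so that 0 of 12 passed, and 3 of 12 passed as deposited.

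With each cow left out in turn, ACSS2 ran from -2.04 to -1.41, ACACA from -0.91 to -0.63, FASN from -0.93 to -0.62 and SREBF1 from -0.23 to -0.02, and the genes higher from 35 to 103. The contrasts ran from -0.19 to 0.20 for ACACA and FASN, -0.79 to -0.48 for ACACA and SREBF1, and -1.29 to -0.59 for ACSS2 and FASN; the other contrasts passed in all 14. The cause of these changes was not tested.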

Other observations

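Mitochondria hold a fatty acid synthesis route of their own, which serves lipoic acid rather than fat storage. Of its 5 measured genes NDUFAB1, the acyl carrier protein that is also a subunit of respiratory complex I, fell by 0.83 (SE 0.186, limma adjusted p = 0.0108), from 0.09 ± 0.306 in healthy to -0.75 ± 0.359 in ketotic cows (SD, n = 7 each), and all 7 ketotic cows lay under the healthy average. None of the 5 rose, and the median over the list was -0.45; 12.4% of all genes fell. Without healthy cow 7, 2 of the 5 fell, where 18.4% of all genes did: NDUFAB1 at -0.92 (limma adjusted p = 0.00344) and HSD17B8 at -0.69 (limma adjusted p = 0.0199), the latter named after its value was seen. NDUFAB1 kept its call in each cow left out and lost it with liver in Cy5 only (-0.75, limma adjusted p = 0.0912) and with unusable spots (-0.75, limma adjusted p = 0.0894) or the array spread (-0.78, limma adjusted p = 0.187) as a covariate, and at a threshold of 0.01.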
